A study of Homo sapiens with 12 samples.

Results

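EEF1A2 and 7 other genes of translation elongation were followed through RNA-seq of 2 rhabdomyosarcoma cell lines depleted of KDM3A, a histone demethylase of the Jumonji family. The 8 genes, of 65975 in the table, are EEF1A1, EEF1A2, EEF1B2, EEF1D, EEF1G, EEF2, EEF1E1 and EIF5A, found by their symbols. EEF1A2 was chosen by its FPKM in RD cells, where it was among the largest drops, so its values in RD, its difference between the lines and its level in one line against the other are given as a description, with no test. RD is an established line of fusion-negative rhabdomyosarcoma (FN-RMS) and Rh30 of fusion-positive rhabdomyosarcoma (FP-RMS), both tumors with features of skeletal muscle. Cells of each line carried a control shRNA (Scramble) or an shRNA against KDM3A (KDM3A-sh2), introduced with lentivirus and kept under puromycin, and each of the 4 groups has 3 libraries. Each tumor subtype is thus represented by 1 line and the depletion by 1 shRNA. Separate cultures are not stated for the libraries of a group, and p-values measure no more than the spread between these libraries. The titles number the libraries of each group from 1 to 3. In the column names all Rh30 Scramble libraries end in 1, while those of the other groups end in 1 to 3. What this final number stands for is not stated. Expression is in FPKM, counts of fragments corrected for a gene's exon length and for the mapped reads in each library. A change is the difference in the mean of log2(FPKM + 1), which understates the change of genes with low values.

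Elongation adds amino acids to a growing protein. The GTPase eEF1A, which EEF1A1 and EEF1A2 encode as separate genes, brings the loaded tRNA to the ribosome, and the exchange complex of EEF1B2, EEF1D and EEF1G recharges it with GTP. EEF2 encodes the GTPase that moves the ribosome along the mRNA, EIF5A a factor with the modified residue hypusine that helps at difficult peptide bonds, and EEF1E1 (also called AIMP3) a scaffold protein of the multisynthetase complex that resembles exchange factor subunits. EEF1A1 is expressed in nearly all tissues, while EEF1A2 is largely restricted to brain, heart and skeletal muscle, where it replaces EEF1A1 as the muscle matures.

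Many mRNAs of the translation machinery begin with a C followed by a run of pyrimidines. The annotated starts of the members are shown here because they differ in this feature. Of the 8 members, 6 matched the RefSeq table of gene starts (GRCh38.p14), and EEF1A2 and EEF1D did not. Each window below holds 15 bases before the annotated start and 15 from it onward, 5′ to 3′ on the strand of the gene. The unbroken run of pyrimidines at the start is in capitals, as far as the window reaches. In the EEF1B2 window the run fills all 15 bases from the start, so its end is not shown. EEF1A1 lies on the minus strand at chr6:73521018-73521047, EEF2 on the minus strand at chr19:3985449-3985478, the second of the EEF1B2 starts on the plus strand at chr2:206159880-206159909 and EEF1G on the minus strand at chr11:62573877-62573906.
EEF1A1: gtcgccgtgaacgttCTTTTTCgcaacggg
EEF2: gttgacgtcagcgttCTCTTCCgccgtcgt
EEF1B2: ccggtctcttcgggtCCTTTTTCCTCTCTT
EEF1G: tctcccgggcggcttactttgcggcagcgc
A C with at least 4 further pyrimidines (C or T) stood at the annotated start of EEF1A1, of EEF2 and of 1 of the 2 starts of EEF1B2, and at 4.07% of the 35116 starts in the table. It was not at the listed starts of EEF1G, EEF1E1 and EIF5A. Only the strand of the gene was read, and a match or its absence describes the annotated start alone.

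KDM3A itself was lower with KDM3A-sh2 in every library, at 33.5 ± 2.50 FPKM (SD, n = 3) with Scramble against 12.2 ± 1.10 in RD, and 29.7 ± 2.14 against 14.1 ± 1.15 in Rh30. The muscle lineage was visible through MYOD1, MYOG, DES and CHRNG, with lowest values of 107, 163.5, 369 and 12.5 FPKM over the 12 libraries, while MYF5 and MYF6 were at or near 0. Among the markers of other cell types, EPCAM reached 7.13 FPKM in Rh30 and was below 1 in RD, PECAM1 reached 1.197, and PTPRC, CDH1, CD3E and VWF did not exceed 0.308. Of the 6 muscle markers 4 could be tested, with 2 called higher and 2 lower in RD and 2 higher in Rh30. Over all genes tested, 21.6% were called higher and 19.5% lower in RD, and 15.3% and 13.2% in Rh30. In limma, MYOD1 fell by 0.25 in RD (adjusted p = 0.00383) and rose by 0.28 in Rh30 (adjusted p = 0.0222), and MYOG fell by 0.14 (adjusted p = 0.0490) and rose by 0.56 (adjusted p = 0.0004). DES and CHRNG went the other way in RD, where they rose by 0.23 (limma adjusted p = 0.0437) and 0.19 (limma adjusted p = 0.0493), and in Rh30 their changes were -0.12 (adjusted p = 0.175) and 0.08 (adjusted p = 0.510). The part of these markers in the changes below was not tested. In these cultures, fewer cells of a kind and less RNA per cell cannot be told apart. The number of reads behind a value is unknown, since FPKM do not hold it.

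EEF1A2 (ENSG00000101210, on the minus strand of chromosome 20 at 63488012 to 63499322 in GRCh38) was the lowest of the 8 genes in every group. In RD the Scramble libraries held 16.1, 17.2 and 17.3 FPKM and the KDM3A-sh2 libraries 3.41, 4.35 and 4.12. The groups lay far apart, and the mean went from 16.9 ± 0.67 to 3.96 ± 0.49 FPKM (SD, n = 3), a 4.26-fold lower value. On the log2 scale this was -1.85 (SE 0.091), the 16th largest drop among 17988 genes, and it is the value for which the gene was picked.

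In Rh30, whose values the stated choice did not use, EEF1A2 also fell. Earlier results of these data were known when the members were chosen, so the test in Rh30 may not be fully independent of the choice. The Scramble libraries held 2.87, 3.44 and 3.09 FPKM and the KDM3A-sh2 libraries 1.196, 1.18 and 0.799. Every KDM3A-sh2 library was below every Scramble library, and the mean went from 3.13 ± 0.29 to 1.06 ± 0.22 FPKM (SD, n = 3), a 2.97-fold lower value. In limma the change was -1.01 (SE 0.14, adjusted p = 0.0029), the 194th largest drop among 17803 genes. In the same comparison 13.2% of all genes tested were called lower and 15.3% higher. An exact two-sided permutation test on the 6 values alone gave p = 0.1, the smallest that 3 libraries against 3 allow. The call was made in 15 of 15 alternative analyses, with changes from -1.50 to -0.92. The alternative with pseudogenes added could not alter it, since no pseudogene of EEF1A2 is named. The fit of all libraries took part of its spread from the RD libraries, in which the gene was chosen. A filter at 10 FPKM left the gene out in Rh30, since none of these libraries reached that level. EEF1A2 ranked 8737th by mean FPKM among all genes in RD Scramble, 13825th in RD KDM3A-sh2, 14200th in Rh30 Scramble and 17675th in Rh30 KDM3A-sh2. RD cells depleted of KDM3A held 3.41 to 4.35 FPKM, a range that overlapped the 2.87 to 3.44 of the Rh30 controls.

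**Figure D1:**
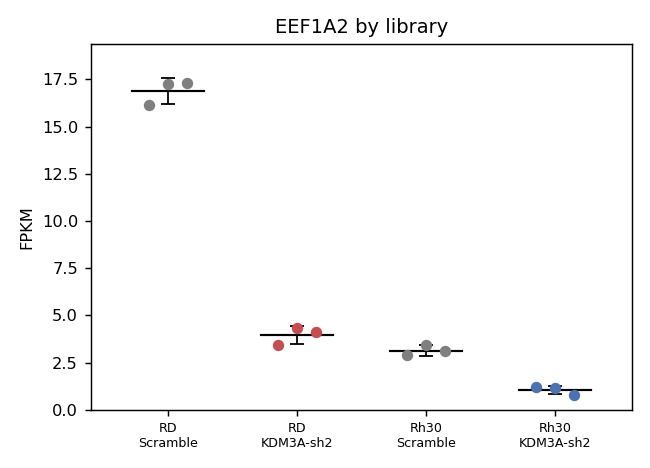
EEF1A2 in each library, in FPKM on a linear axis from 0, by line and shRNA. Points are libraries, bars the group mean and its SD (n = 3). The KDM3A-sh2 libraries lie below the Scramble libraries in both lines, at means of 3.96 against 16.9 FPKM in RD and 1.06 against 3.13 in Rh30.

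EEF1A1 (ENSG00000156508, on the minus strand of chromosome 6 at 73515750 to 73523797) held far more FPKM than EEF1A2 in every library. Its Scramble libraries in RD held 1011, 926.5 and 914.6 FPKM and its KDM3A-sh2 libraries 892.7, 874.8 and 843.7, which did not overlap. In Rh30 the Scramble libraries held 1450, 1359 and 1479 FPKM and the KDM3A-sh2 libraries 1588, 1611 and 1481, again without overlap but with KDM3A-sh2 on the upper side. The limma change was -0.13 in RD (SE 0.046, adjusted p = 0.0666) and 0.13 in Rh30 (SE 0.047, adjusted p = 0.0884), so neither passed the threshold of 0.05. The change in Rh30 passed it (0.16, limma adjusted p = 0.0493) when KDM3A-sh2 library 3 was left out.

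Of the summed FPKM of EEF1A1 and EEF1A2, EEF1A2 held 1.75% ± 0.16 (SD, n = 3) in RD Scramble and 0.454% ± 0.063 in RD KDM3A-sh2. The share was 0.220% ± 0.029 in Rh30 Scramble and 0.0674% ± 0.0117 in Rh30 KDM3A-sh2, where the groups did not overlap (exact two-sided permutation p = 0.1, the smallest possible). EEF1A2 was therefore a minor form of eEF1A mRNA in these libraries, below 2% in each. Reads that could fit both genes were not examined, and FPKM of EEF1A1 depend on how reads were split between it and its pseudogenes, which is described further on.

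Of the 3 subunits of the exchange complex, EEF1D (ENSG00000104529), which encodes an exchange subunit, had 840.2, 857.5 and 941.4 FPKM in the RD Scramble libraries and 704.3, 753.0 and 693.7 in the KDM3A-sh2 libraries. It was the member other than EEF1A2 with the largest fall in RD, at -0.29 (SE 0.053, limma adjusted p = 0.0048), and it was called in 16 of 16 alternatives. In Rh30 it held 859.4, 867.9 and 752.9 FPKM with Scramble and 918.9, 946.0 and 916.0 with KDM3A-sh2, which did not overlap. That change of 0.17 (SE 0.057) did not pass the test (limma adjusted p = 0.0703). A second identifier of EEF1D was listed at 0 in all libraries and is not counted among the members.

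EEF1B2 (ENSG00000114942, on the plus strand of chromosome 2 at 206159585 to 206162928), the other exchange subunit, held 425.0, 435.0 and 444.9 FPKM in RD Scramble and 418.1, 379.6 and 372.3 in RD KDM3A-sh2. In Rh30 it held 624.0, 647.3 and 633.1 FPKM with Scramble and 714.2, 726.7 and 662.6 with KDM3A-sh2. The groups did not overlap in either line. EEF1B2 fell by 0.16 in RD (SE 0.049, limma adjusted p = 0.0384) and rose by 0.14 in Rh30 (SE 0.042, limma adjusted p = 0.0440). Both calls sat close to the threshold and were made in 6 of 16 alternatives in each line. In RD the call was lost without any Scramble library (adjusted p 0.0594, 0.0933 and 0.109 without libraries 1, 2 and 3 in limma) and without KDM3A-sh2 library 2 (0.113) or 3 (0.0992). In Rh30 it was lost without any Scramble library (0.123, 0.0693 and 0.0935) and without KDM3A-sh2 library 1 (0.136) or 2 (0.126).

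EEF1G (ENSG00000254772, on the minus strand of chromosome 11 at 62559601 to 62574086) encodes the subunit that anchors the complex. It was the member that varied least between libraries of a group in RD relative to its mean, with 539.6, 541.1 and 548.1 FPKM in Scramble and 519.3, 523.5 and 527.4 in KDM3A-sh2. This small shift of -0.05 (SE 0.026) did not pass the test (limma adjusted p = 0.147). When unlogged FPKM were tested, EEF1G was called lower in RD (adjusted p = 0.0227) and EEF1B2 was not (adjusted p = 0.0985). In Rh30 EEF1G rose, from 1042, 1068 and 1027 FPKM to 1240, 1280 and 1211. The change of 0.25 (SE 0.033, limma adjusted p = 0.0025) was called in 16 of 16 alternatives, at 0.22 to 0.27.

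**Figure D2:**
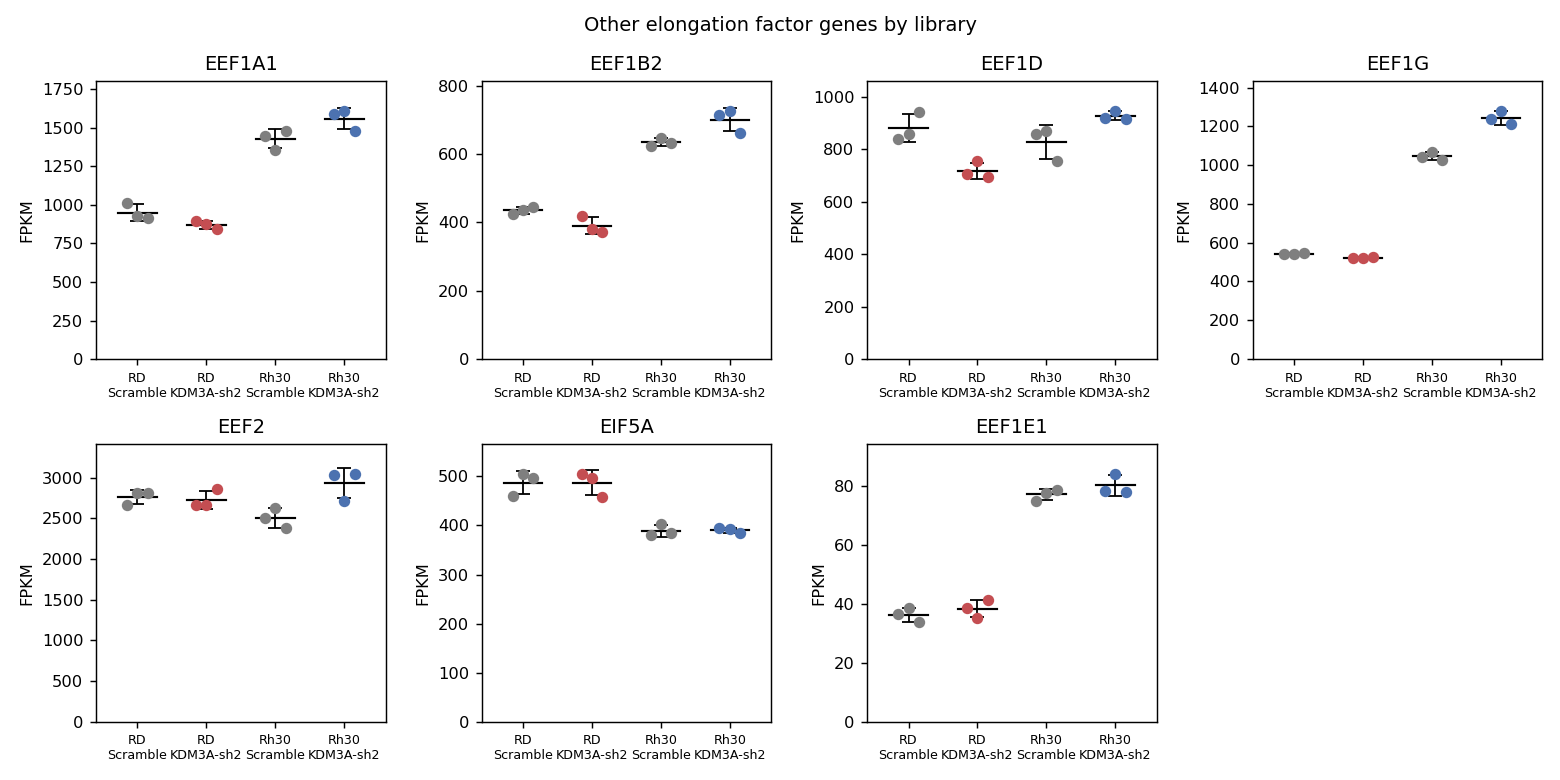
The other 7 genes in each library, in FPKM on linear axes from 0 that differ between panels, by line and shRNA. Points are libraries, bars the group mean and its SD (n = 3). EEF1D falls in RD to a mean of 717 FPKM, EEF1G rises in Rh30 to a mean of 1244 FPKM, and the groups of EIF5A and EEF1E1 overlap within each line.

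EEF2 (ENSG00000167658, on the minus strand of chromosome 19 at 3976056 to 3985469) had the highest FPKM of the members in all 4 groups, counting each gene without its pseudogenes. In RD its Scramble libraries held 2660, 2814 and 2811 FPKM and its KDM3A-sh2 libraries 2659, 2660 and 2856, which overlapped (change -0.02, SE 0.041, limma adjusted p = 0.733). In Rh30 it held 2499, 2633 and 2379 FPKM with Scramble and 3028, 2718 and 3051 with KDM3A-sh2, a rise of 0.23 (SE 0.058, limma adjusted p = 0.0276). The rise was called in 8 of 16 alternatives, among them that with pseudogenes added, which left the values of EEF2 unchanged. It lost its call in limma without Scramble library 1 (adjusted p = 0.0744) or 3 (0.0772) and without KDM3A-sh2 library 1 (0.0927) or 3 (0.0764).

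EIF5A and EEF1E1 did not pass the test in either line. EIF5A (ENSG00000132507, on the plus strand of chromosome 17 at 7306999 to 7312463) ranged from 458.6 to 505.9 FPKM over the 6 RD libraries and from 380.7 to 403.8 over the 6 Rh30 libraries. Its change was -0.0008 in RD (SE 0.052, limma adjusted p = 0.992) and 0.0032 in Rh30 (SE 0.034, limma adjusted p = 0.955). EEF1E1 (ENSG00000124802, on the minus strand of chromosome 6 at 8073360 to 8102578) lay between 33.8 and 41.2 FPKM in RD and between 75.05 and 84.2 in Rh30. Its change was 0.08 in RD (SE 0.073, limma adjusted p = 0.447) and 0.05 in Rh30 (SE 0.045, limma adjusted p = 0.408). A transcript joining EEF1E1 to its neighbour, EEF1E1-BLOC1S5, did not exceed 0.5005 FPKM in any library.

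Counted together, 2 of the 7 members tested in RD were called, EEF1B2 and EEF1D, both lower. Over all genes tested in RD, 21.6% were called higher and 19.5% lower, so a count of 2 in 7 lies near the background. In Rh30, 3 of 8 were called higher (EEF1B2, EEF1G and EEF2) and 1 lower (EEF1A2), beside 15.3% and 13.2% of all genes tested. The median change of the members was -0.05 in RD and 0.13 in Rh30, beside medians over all genes of 0.0067 and 0.031. The groups did not overlap in 4 of 7 members in RD and in 6 of 8 in Rh30, and over all genes tested this was so for 53.4% in RD and 45.8% in Rh30.

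**Figure D3:**
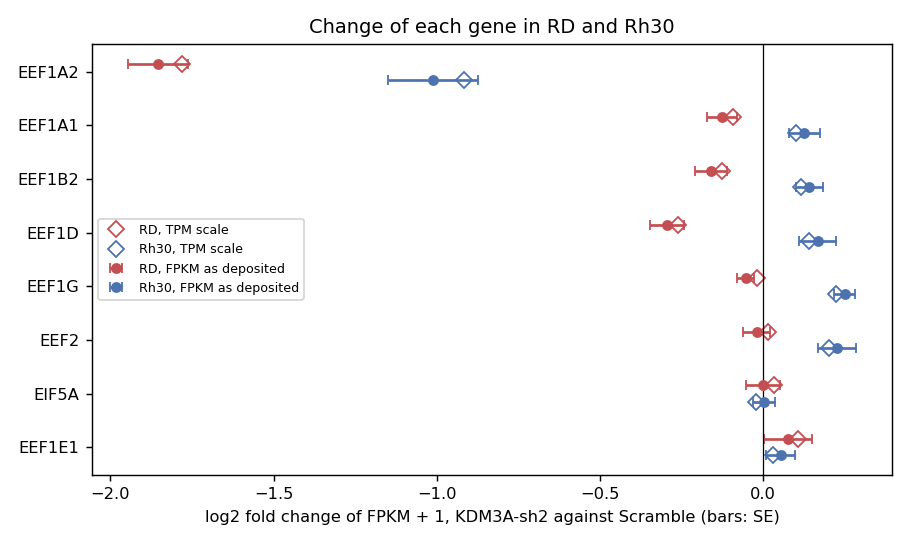
Change of each gene with KDM3A-sh2 against Scramble, as the difference in mean log2(FPKM + 1) on a linear axis, in RD (red) and Rh30 (blue). Filled points are FPKM as deposited with bars of 1 SE, and open diamonds are values rescaled to a common total (TPM scale). EEF1A2 stands apart at -1.85 and -1.01, and EEF1A1, EEF1B2, EEF1D and EEF1G lie on opposite sides of 0 in the lines.

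Whether the change differed between the lines was asked with the interaction of line and shRNA over all 12 libraries. KDM3A itself fell less in Rh30 than in RD, with a difference of 0.37 (SE 0.119, limma adjusted p = 0.0388). The depletion was thus not equal in the lines, and its part in the differences below was not tested. Of the 7 members tested, 5 had a higher change in Rh30 than in RD and the other 2 were not called. Over all genes tested, 14.4% had a higher and 13.4% a lower change in Rh30. The difference was 0.46 for EEF1D (SE 0.084, limma adjusted p = 0.0022), 0.30 for EEF1G (SE 0.038, adjusted p = 0.0002) and 0.30 for EEF1B2 (SE 0.067, adjusted p = 0.0067), and these 3 were called in 20 of 20 alternatives. EEF1A1 differed by 0.25 (SE 0.069, limma adjusted p = 0.0195), although its change was not called in either line. EEF2 differed by 0.25 (SE 0.075, limma adjusted p = 0.0313), and this call was made in 8 of 20 alternatives.

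The summed FPKM of a library ran from 1198000 in RD KDM3A-sh2 to 1379000 in Rh30 KDM3A-sh2, and the scaling bears on the difference between the lines. With all libraries on the TPM scale, 2094 genes had a higher change in Rh30 and 3051 a lower one, against 2665 and 2486 on the deposited scale. On the TPM scale 3 members kept a call, and the difference was 0.19 for EEF1A1 (limma adjusted p = 0.0633) and 0.19 for EEF2 (limma adjusted p = 0.101). EEF2 also lost its call when any one of 8 libraries was left out, with adjusted p of 0.0583 to 0.0738 in limma. These were Scramble libraries 2 and 3 and KDM3A-sh2 libraries 1 and 2 of RD, and Scramble libraries 1 and 3 and KDM3A-sh2 libraries 1 and 3 of Rh30. EIF5A (0.004, limma adjusted p = 0.972) and EEF1E1 (-0.02, limma adjusted p = 0.885) were not called. For EEF1A2 the change in Rh30 minus that in RD was 0.84, and it was 0.57 with 0.1 in place of 1 added to the FPKM, given here with no test.

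The 4 groups shared most of the order of levels per length. EEF2 led with group means of 2504 to 2932 FPKM, followed by EEF1A1, and EEF1E1 and EEF1A2 came last. Between them the lines differed. In RD Scramble the order was EEF1D at 879.7 FPKM, whose range overlapped that of EEF1A1, then EEF1G at 542.9, EIF5A at 487.3 and EEF1B2 at 435.0. In Rh30 Scramble it was EEF1G at 1046, EEF1D at 826.7, EEF1B2 at 634.8 and EIF5A at 389.5. Apart from EEF1A1 and EEF1D in RD Scramble, the ranges of neighbours in the order did not overlap in any group. This order counts each gene without its pseudogenes, and it changed when they were added. EEF1A1 then had group means of 3263 FPKM in RD Scramble, 2969 in RD KDM3A-sh2, 4943 in Rh30 Scramble and 5267 in Rh30 KDM3A-sh2. Each lay above the mean of EEF2 in the same group. EEF1B2 then stood above EEF1G, at 807.6 against 551.3 FPKM in RD Scramble and 1187 against 1063 in Rh30 Scramble.

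Between the Scramble groups, Rh30 had more EEF1E1 than RD by 1.07 (SE 0.057, limma adjusted p = 3.02e-06), more EEF1G by 0.94 (adjusted p = 1.97e-07), more EEF1A1 by 0.59 (adjusted p = 3.66e-05) and more EEF1B2 by 0.54 (adjusted p = 4.46e-06). EIF5A was lower in Rh30, at -0.32 (SE 0.045, limma adjusted p = 0.0005). EEF2 was lower at -0.14 (SE 0.044, limma adjusted p = 0.0226), and this call was made in 7 of 15 alternatives. Its adjusted p in limma was 0.0713 without RD library 2, 0.0772 without RD library 3, 0.0576 without Rh30 library 1 and 0.0596 without Rh30 library 3, and 0.273 with upper-quartile scaling. EEF1D did not pass the test (-0.09, SE 0.068, limma adjusted p = 0.263), and on the TPM scale it was called lower at -0.20 (adjusted p = 0.0261). In all, 4 of 7 members were called higher and 2 lower, beside 35.0% and 39.6% of all genes tested. EEF1A2 was 5.39-fold lower in Rh30, described with no test. RD was grown in DMEM and Rh30 in RPMI, so the line and its medium cannot be told apart here.

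Processed pseudogenes, copies of mRNAs inserted into the genome, are numerous for some members and can draw reads from them. The table names 39 pseudogenes of EEF1A1, 8 each of EEF1B2, EEF1D and EEF1G, 3 of EIF5A, 1 of EEF1E1 and 0 of EEF1A2 and EEF2. EEF1A1P5 had a mean of 2052 FPKM over the libraries, above EEF1A1 itself, with group means of 1636 in RD Scramble, 1478 in RD KDM3A-sh2, 2476 in Rh30 Scramble and 2620 in Rh30 KDM3A-sh2. The pseudogenes held 70.9% ± 1.59, 70.7% ± 0.34, 71.1% ± 1.197 and 70.4% ± 0.52 (SD, n = 3) of the summed FPKM of EEF1A1 and its pseudogenes in the same 4 groups. For EEF1B2 these shares were 46.1% ± 0.24, 45.3% ± 0.69, 46.5% ± 0.78 and 46.4% ± 0.42. EEF1A1P5 fell by 0.15 in RD (limma adjusted p = 0.0442) and its change in Rh30 was 0.08 (limma adjusted p = 0.154). EEF1B2P3 fell by 0.22 in RD (limma adjusted p = 0.0084) and rose by 0.14 in Rh30 (limma adjusted p = 0.0403). The share was 7.56% to 8.18% for EEF1D and 1.49% to 1.65% for EEF1G as group means. Whether reads from the genes were assigned to the copies was not tested, and levels of EEF1A1 and EEF1B2 are uncertain to this extent.

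With the pseudogenes added to their gene, EEF1A1 was called lower in RD (-0.14, SE 0.036, limma adjusted p = 0.0214), and its change in Rh30 was 0.09 (SE 0.032, adjusted p = 0.074). EEF1B2, EEF1D and EEF1G kept the calls they had. The share of EEF1A2 in the summed FPKM of EEF1A1, its pseudogenes and EEF1A2 was 0.515% ± 0.022 (SD, n = 3) in RD Scramble, 0.134% ± 0.019 in RD KDM3A-sh2, 0.0634% ± 0.0057 in Rh30 Scramble and 0.0200% ± 0.0038 in Rh30 KDM3A-sh2. All processed pseudogenes together held 9.81% of the summed FPKM in RD Scramble, 9.11% in RD KDM3A-sh2, 13.9% in Rh30 Scramble and 14.3% in Rh30 KDM3A-sh2, moving in the direction of EEF1B2 in each line. Their part in the changes of the members was not tested.

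**Figure D4:**
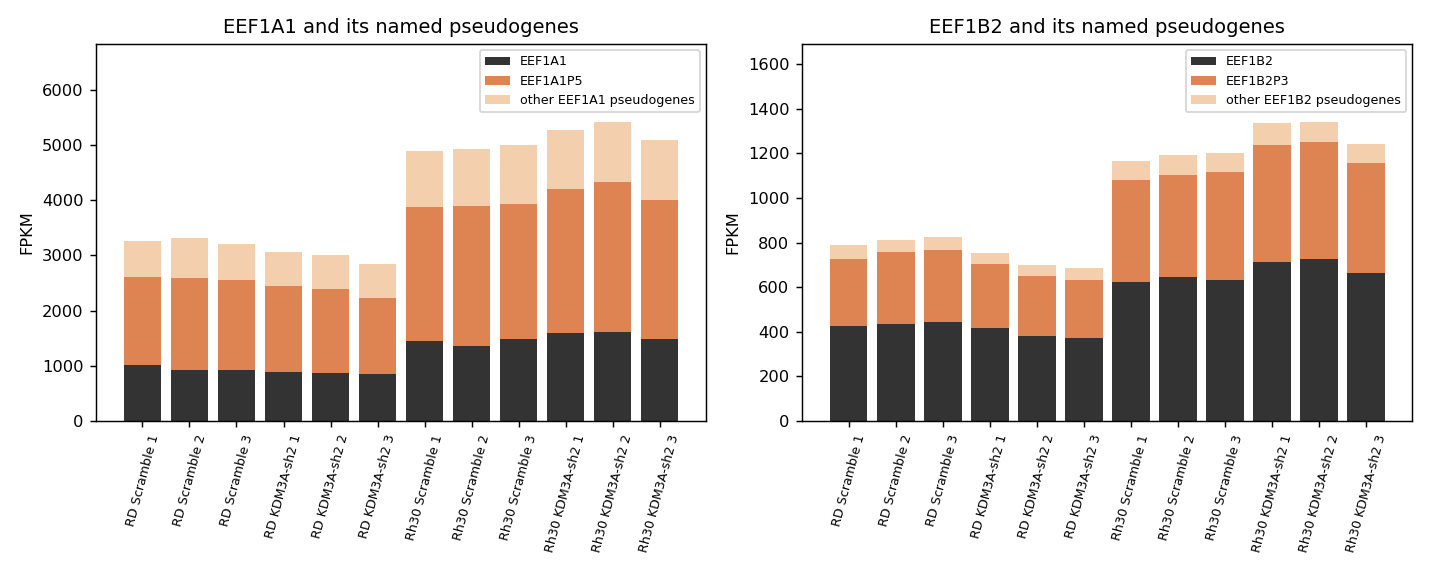
EEF1A1 (left) and EEF1B2 (right) with their named pseudogenes in each library, as stacked FPKM on linear axes from 0. The dark part is the gene, the orange part its most abundant pseudogene and the pale part the other pseudogenes. The stacks differ between the lines, while the pseudogenes hold about the same part in each, with group means of 70.4% to 71.1% for EEF1A1 and 45.3% to 46.5% for EEF1B2.

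The rest of the translation machinery was read from fixed lists of 81 genes, all tested in both lines. In RD 15 were called higher (18.5%) and 21 lower (25.9%), beside 21.6% and 19.5% of all genes tested, with a median change of -0.05. In Rh30 17 were called higher (21.0%) and 13 lower (16.0%), beside 15.3% and 13.2% of all genes tested, with a median of 0.0072. The counts for each list below are to be read against these same shares of all genes. Among 38 initiation factors, 5 were higher and 12 lower in RD (21.6% and 19.5% over all genes), and 8 higher and 7 lower in Rh30 (15.3% and 13.2%). EIF2S3, a subunit of the factor that carries the initiator tRNA, fell in RD from 75.2 ± 2.29 to 50.1 ± 0.69 FPKM (-0.57, limma adjusted p = 8.29e-05) and in Rh30 from 148 ± 5.09 to 112 ± 3.23 (-0.40, limma adjusted p = 0.0010). EIF4G2, a scaffold protein of initiation without the cap-binding factor, fell by 0.41 in Rh30 (limma adjusted p = 0.0016) and by 0.34 in RD (limma adjusted p = 0.0030). EIF4EBP1, an inhibitor of cap-dependent initiation, rose by 0.46 in RD (limma adjusted p = 0.0004) and had a change of 0.10 in Rh30 (limma adjusted p = 0.251), a difference that itself passed the test (-0.35, adjusted p = 0.0078).

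Of 4 termination and recycling genes, 2 were called in RD and 1 in Rh30, all lower. ETF1, which recognises stop codons, fell by 0.31 in RD (limma adjusted p = 0.0018) and by 0.32 in Rh30 (limma adjusted p = 0.0039). Its partner GSPT1 fell by 0.20 in RD with overlapping groups (limma adjusted p = 0.0472). Among 5 mitochondrial elongation genes, 1 was called, in Rh30, where TUFM, the mitochondrial counterpart of eEF1A, rose by 0.13 (limma adjusted p = 0.0330). The 2 paralogs EIF5A2 and EIF5AL1 were not called in either line. EIF5AL1 is a close copy of EIF5A, so its 24.0 to 31.3 FPKM as group means are uncertain.

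Among 21 cofactors and modifying enzymes, 5 were higher and 6 lower in RD (21.6% and 19.5% over all genes), and 7 higher and 4 lower in Rh30 (15.3% and 13.2%). SECISBP2, which recruits the elongation factor for selenocysteine, fell by 0.54 in RD (limma adjusted p = 0.0020) and by 0.21 in Rh30 (limma adjusted p = 0.0189). N6AMT2, also named EEF1AKMT1, a methyltransferase acting on eEF1A, fell by 0.42 in RD (limma adjusted p = 0.0019). Its change in Rh30 was -0.29 (limma adjusted p = 0.208). In Rh30, DPH3 and DPH5, both needed to make diphthamide on eEF2, moved apart. DPH3 fell by 0.49 (limma adjusted p = 0.0025) and DPH5 rose by 0.46 (limma adjusted p = 0.0130). In RD DPH3 also fell, by 0.22 (limma adjusted p = 0.0259), and DPH5 had a change of 0.013 (limma adjusted p = 0.92). A list of 11 genes held VARS and genes of the multisynthetase complex, in which EEF1E1 sits. Of these, 5 were higher and 1 lower in RD (21.6% and 19.5% over all genes). In Rh30 1 was higher and 1 lower (15.3% and 13.2%). VARS, listed beside the complex, was among the 5 higher in RD (0.15, limma adjusted p = 0.0314). MARS, the methionyl-tRNA synthetase, rose from 207 ± 15.9 to 335 ± 29.6 FPKM in RD (0.69, limma adjusted p = 0.0007) and fell from 1736 ± 172 to 1473 ± 25.1 in Rh30 (-0.23, limma adjusted p = 0.0426), a difference of -0.93 (adjusted p = 0.0002). DARS rose by 0.39 in RD (limma adjusted p = 0.0035). AIMP2, another scaffold of the complex, fell by 0.14 in RD (limma adjusted p = 0.0377) and rose by 0.14 in Rh30 (limma adjusted p = 0.0375).

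**Figure D5:**
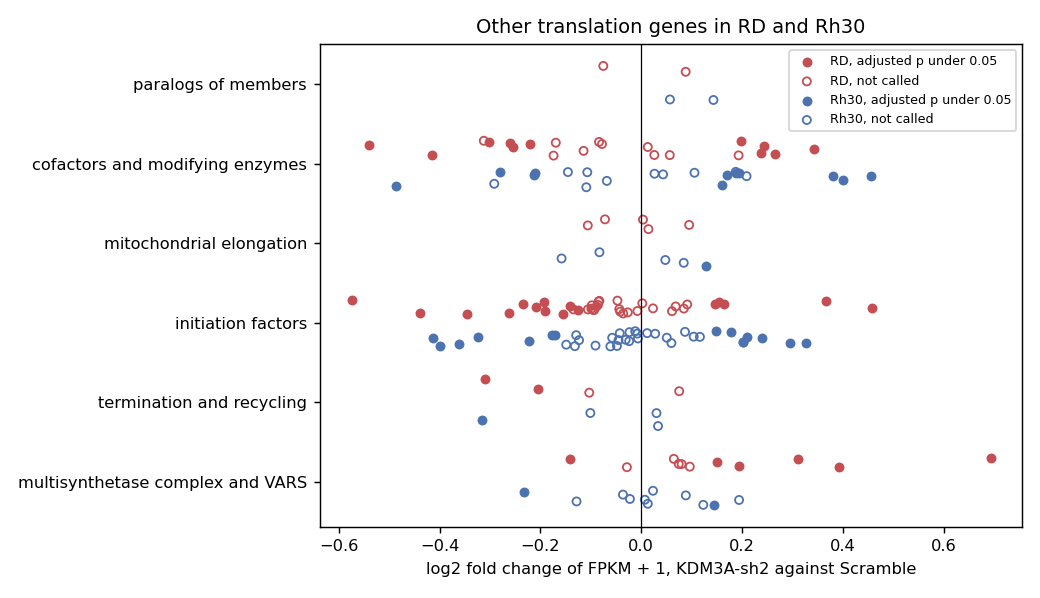
Change of the 81 listed translation genes with KDM3A-sh2 against Scramble, as the difference in mean log2(FPKM + 1) on a linear axis, by list and line. Each point is a gene, spread vertically for visibility, and filled points passed an adjusted p of 0.05. The initiation factors have points on both sides of 0 in each line, and MARS in RD is the farthest to the right at 0.69.

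The pattern of EEF1A2 over the 12 libraries was most like that of FDPS, an enzyme of isoprenoid synthesis, at a Pearson r of 0.988 of log2(FPKM + 1) among 13388 genes averaging 5 FPKM or more. HSP90B3P (0.988), RHEB (0.987), HEXIM1 (0.987) and SERBP1P5 (0.984) followed. The 12 points form 4 groups that share line and shRNA, so r mostly reflects how far apart the group means lie. It does not measure the order of the groups. FDPS had 329, 214, 195 and 149 FPKM as means of RD Scramble, RD KDM3A-sh2, Rh30 Scramble and Rh30 KDM3A-sh2, the same order as EEF1A2. Of the other members, r with EEF1A2 was 0.72 for EIF5A, -0.78 for EEF1E1, -0.77 for EEF1G, -0.70 for EEF1A1, -0.68 for EEF1B2, -0.14 for EEF2 and -0.06 for EEF1D. EIF5A had this r with changes of -0.0008 in RD and 0.0032 in Rh30, so a high r need not mean a shared change with the shRNA.

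Around EEF1A2, the protein-coding genes described were CHRNA4 at 109611 bp toward lower coordinates, and PPDPF at 21402 bp and PTK6 at 28679 bp toward higher coordinates. CHRNA4 did not exceed 0.00989 FPKM in any library. PPDPF fell from 132.5 ± 2.87 to 96.7 ± 11.0 FPKM in RD (-0.46, limma adjusted p = 0.0035) and had a change of 0.21 in Rh30 (limma adjusted p = 0.151). PTK6 fell from 3.26 ± 0.09 to 1.93 ± 0.06 FPKM in Rh30 (-0.54, limma adjusted p = 0.0086). In RD it had 1.13 ± 0.11 and 0.543 ± 0.073 FPKM, a mean under the limit of 1 FPKM for testing. Within 500000 bp on each side, a window chosen after the data were seen, 2 of 22 genes tested were higher and 10 lower in RD (21.6% and 19.5% over all genes), and 3 of 21 were higher and 5 lower in Rh30 (15.3% and 13.2%). The window includes NKAIN4 at 215318 bp, named here after its values were seen and so described with no test. Its changes were -1.38 in RD and -2.80 in Rh30. It is counted among the lower genes of the window in both lines.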

How the data were processed

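The authors extracted polyadenylated RNA, prepared directional libraries, aligned single-end reads to GRCh38 with GSNAP, handled alignments with SAMtools and deposited FPKM computed with Cufflinks. The annotation release and strand setting were not given in the sources used here, and the read length differs between the Methods and the labels. FPKM hold no read number, so depth and its precision are unknown. In the table of 66095 entries, 120 repeats were left out, leaving 65975 genes. The value 999999999, in 17 genes, was read as missing, and a gene with it was left out of a fit. Samples were grouped by the labels. Positions came from GENCODE 29, which holds 86.3% of the identifiers.

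Within a line, the shRNA groups were tested on log2(FPKM + 1) by limma 3.58.1 (lmFit and eBayes with trend) under R 4.3.3, keeping genes that averaged 1 FPKM or more. P-values were two-sided, with Benjamini-Hochberg adjustment over all genes and a threshold of 0.05. The interaction used all 12 libraries. The code was tested on simulated data. Exact permutation tests used SciPy 1.17.1. The alternatives were a pseudocount of 0.1, no filter, a filter of 10 FPKM in 1 library, TPM scale, upper-quartile scaling, ANOVA, no trend, a replicate block, 1 fit of all libraries, leaving out each library and, added after the data were seen, pseudogenes added to their gene. That last alternative leaves EEF1A2 and EEF2 unchanged, since no pseudogene of either is named, and its calls for them repeat the main ones.

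The members and lists were chosen with earlier results of these data known. Genes named were the members, KDM3A, each member's most abundant pseudogene, the 2 called genes with the largest change per list and line, the paralogs, the 5 genes most correlated with EEF1A2 and the 2 nearest protein-coding genes on each side of it. A result for 1 of these genes is not reported here.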

Additional observations from a re-analysis of the deposited data

Results flagged for a closer look

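For 5 members the change with KDM3A-sh2 differed between the lines by the limma interaction test, with the change in Rh30 above that in RD. The difference was 0.461 for EEF1D (adjusted p = 0.0022), 0.303 for EEF1G (adjusted p = 0.0002), 0.301 for EEF1B2 (adjusted p = 0.0067), 0.253 for EEF1A1 (adjusted p = 0.0195) and 0.247 for EEF2 (adjusted p = 0.0313). EEF1D, EEF1G and EEF1B2 were called in 20 of 20 alternatives, EEF1A1 in 19 and EEF2 in 8. On the TPM scale EEF1A1 (limma adjusted p = 0.0633) and EEF2 (limma adjusted p = 0.101) lost their calls. The muscle regulators MYOD1 and MYOG had differences of the same sign, at 0.52 (adjusted p = 0.0009) and 0.70 (adjusted p = 3.06e-05) in limma, while DES had -0.35 (adjusted p = 0.0274) and CHRNG -0.11 (adjusted p = 0.470). KDM3A itself had a difference of 0.37 (adjusted p = 0.0388 in limma), with the smaller fall in Rh30. The part of these markers and of the unequal depletion in the members' differences was not tested.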

How the results depend on the processing

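EEF1A2 in Rh30 was called in all 15 analyses that tested it, EEF1D in RD and EEF1G in Rh30 in 16 of 16. For EEF1A2 the alternative with pseudogenes added left the values as they were, and the fit of all libraries drew partly on RD. Members called in RD were 2, and 1 with no filter, on the TPM scale, without trend or with a replicate block (1 to 2 without each library). ANOVA also called 2, EEF1D and EEF1G (adjusted p = 0.0227) in place of EEF1B2 (0.0985). In Rh30 they were 4, and 2 with no filter, ANOVA, no trend or the replicate block (2 to 4 without each library). For the difference they were 5, and 3 on the TPM scale. Listed translation genes called were 36 in RD (23 to 28 without each library) and 30 in Rh30, where they were 18 with ANOVA, 19 without trend, 16 with the replicate block and 18 to 24 without each library. Genes called over all in Rh30 were 2719 higher and 2347 lower, and 1621 and 1594 without KDM3A-sh2 library 1. Of 17803 genes tested there, 1899 were higher and 1760 lower with ANOVA, 2511 and 2119 without trend, and 1798 and 1623 with the replicate block. In RD they were 3879 and 3511, and 3174 to 3453 and 2810 to 3105 without each library. The counts of listed genes are to be read against these, which fell too. The EEF1A2 share of EEF1A1 plus EEF1A2 changed by -1.30 points in RD and -0.152 in Rh30, and by -0.381 and -0.0434 with pseudogenes added.

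Values near 0 changed sign. EEF2 in RD was 0.014 on the TPM scale. EIF5A in RD was 0.033 on the TPM scale, 0.0096 with pseudogenes added, and 0.024, 0.014 and 0.042 without Scramble libraries 2 and 3 and KDM3A-sh2 library 3 (-0.041 to 0.042 without each library). EIF5A in Rh30 was -0.022 on the TPM scale, -0.0035 with upper-quartile scaling, -0.0028 with pseudogenes added, and -0.013, -0.0068, -0.0040 and -0.00016 without Scramble libraries 1 and 3 and KDM3A-sh2 libraries 1 and 2 (-0.022 to 0.029 over all alternatives). Its difference between the lines was -0.056 on the TPM scale, -0.012 with pseudogenes added and -0.039 to 0.044 without each library. The EEF1E1 difference was 0.012 with pseudogenes added, and -0.078 to 0.030 without each library. The causes were not tested.

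The replicate numbers of the labels were not taken as pairs. Deviations of same-numbered libraries correlated at -0.074 to 0.048, and in 1 of 9 comparisons of same-numbered libraries across 3 pairs of groups the own number matched best. With the replicate block, 1798 genes were higher and 1623 lower in Rh30, and 3282 and 2977 in RD. FPKM without read numbers limit what can be said of genes near 1 FPKM, such as EEF1A2 in Rh30.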
